A study of Homo sapiens with 18 samples.

Results

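The comparison described here asked what olaparib added to VIC-1911 after 7 days in C4-2B cells. It set 3 libraries of cells given both drugs (0.1 μM VIC-1911 and 1 μM olaparib) against 3 libraries of cells given 0.1 μM VIC-1911 alone, 6 of the 18 libraries of the study. C4-2B is an established human prostate cancer line that grows without androgen. VIC-1911 inhibits the mitotic kinase AURKA, olaparib inhibits the DNA repair enzymes PARP1 and PARP2, and DMSO was the vehicle. Poly(A) RNA was sequenced. Libraries of vehicle (3) and of 1 μM olaparib alone (3) from the same 7 days entered the fit and served to compare the effect of olaparib with and without VIC-1911. The 2-day libraries of the study were not used here. The cells of every 7-day group are the same line, and no source states that the replicates came from separate cultures, so the p-values measure the spread between these libraries, which may be technical. Of the 21276 genes in the count table, 13929 had at least 10 counts in at least 3 of the 6 libraries and were tested.

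The VIC-1911 libraries held 10009912 to 15935359 counts and the combination libraries 11431653 to 17578841. The biological coefficient of variation in the fit was 4.43%. The first principal component of the 6 libraries took 65.9% of the variance and separated the groups, with VIC-1911 libraries between -26.2 and -24.1 and combination libraries between 24.0 and 26.6. By the library numbers in the labels, the vehicle and VIC-1911 libraries belong to one run of numbers and the olaparib and combination libraries to another. The labels do not call these runs a batch, but any difference between the runs and the effect of olaparib cannot be told apart in the comparison of the combination with VIC-1911. A constant shift between the runs cancels in the difference between the olaparib effects with and without VIC-1911, called the interaction below. Replicate 1 of olaparib, with the lowest depth (4967931 counts), stood apart on the third principal component of the 12 libraries (6.77% of the variance), at 31.8 against -1.13 and 0.997 for the other olaparib libraries. Without it the interaction was positive for 2915 genes and negative for 3143, in place of 3157 and 3080. The share of counts on cytosolic ribosomal protein genes was 7.73 to 8.05% in the VIC-1911 libraries and 8.18 to 8.94% in the combination libraries, and its part in the results was not tested.

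All 14 luminal prostate epithelial markers in the table, among them KRT8, KRT18, KLK3 and HOXB13, had a mean of at least 1 FPKM in both groups. FPKM is the number of sequenced fragments scaled by the length of the gene and the size of the library. Their summed level was 3257 to 3429 FPKM in the VIC-1911 libraries and 3020 to 3142 FPKM in the combination libraries. Of the markers of other cell types, 3 of 11 basal, 2 or 3 of 14 stromal and endothelial and 1 of 10 leukocyte markers had a mean of at least 1 FPKM in either group. The one leukocyte marker at that level was CD68.

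AURKA drives centrosome maturation and spindle assembly, and cells that cannot use it are delayed in mitosis or leave it without dividing. PARP1 and PARP2 mark single-strand DNA breaks for repair, and their inhibitors trap them on DNA and leave lesions that replication forks must bypass or repair by homologous recombination. DNA damage activates p53, which induces the CDK inhibitor p21 (CDKN1A). p21 keeps the DREAM complex on the promoters of cell cycle genes and so holds them off. Promoters of late cell cycle genes often carry a CHR element (cell cycle genes homology region) and CCAAT boxes, which bind NF-Y, and promoters of genes for DNA replication often carry E2F sites.

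The genes of mitosis were the group that fell furthest, and their promoters are shown because they moved together. The 150 bases before the transcription start are given for PLK1, MKI67 and KIF20A, which act in mitosis, and for RRM2 and GINS2, which act in DNA replication (RefSeq, GRCh38.p14). The table lists more than one start for RRM2. The stretch shown precedes the downstream start and lies inside the outer limits of the gene, which begins at 10122568. GINS2 was chosen after the values were seen, as an example of the E2F letters. Capitals mark TTTGAA or TTCGAA (CHR), CCAAT, and the E2F letters TTTCCCGC, TTTGGCGC, TTTGCCGC or TTTCGCGC, each sought on both strands.
PLK1, chr16:23678739-23678888 (+ strand): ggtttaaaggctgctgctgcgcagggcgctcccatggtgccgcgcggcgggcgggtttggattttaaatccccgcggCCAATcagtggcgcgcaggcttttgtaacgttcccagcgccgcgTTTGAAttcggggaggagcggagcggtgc
MKI67, chr10:128126424-128126573 (- strand): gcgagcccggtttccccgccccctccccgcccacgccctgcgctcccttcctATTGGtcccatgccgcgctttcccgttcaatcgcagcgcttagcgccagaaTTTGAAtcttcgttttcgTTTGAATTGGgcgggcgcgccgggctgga
KIF20A, chr5:138178962-138179111 (+ strand): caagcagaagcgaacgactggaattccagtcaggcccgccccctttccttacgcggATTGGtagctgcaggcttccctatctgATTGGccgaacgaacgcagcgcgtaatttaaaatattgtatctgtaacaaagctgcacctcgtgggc
RRM2, chr2:10122589-10122738 (+ strand): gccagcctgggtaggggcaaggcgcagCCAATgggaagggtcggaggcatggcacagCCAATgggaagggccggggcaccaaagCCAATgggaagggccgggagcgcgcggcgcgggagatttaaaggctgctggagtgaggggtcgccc
GINS2, chr16:85688955-85689104 (- strand): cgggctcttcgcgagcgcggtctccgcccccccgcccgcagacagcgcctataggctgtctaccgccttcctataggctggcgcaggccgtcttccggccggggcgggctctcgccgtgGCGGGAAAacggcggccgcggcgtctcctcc

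In PLK1 the CHR letters began 29 bases before the start and a CCAAT box 73 bases before it. MKI67 held the CHR letters 47 and 29 bases before the start and CCAAT, read on the other strand, 98 and 24 bases before it, where the last of these begins on the last base of the CHR letters. KIF20A held 2 CCAAT boxes, 94 and 67 bases before the start, and no CHR letters in this stretch. RRM2 held 3 CCAAT boxes, and GINS2 the E2F letters 31 bases before the start. Over windows of 250 bases before to 50 bases after the start, the CHR letters were found in 55 of the 78 mitosis genes that had an entry (70.5%), against 16.6% of all 27305 promoters and 10.7% of the promoters of tested genes. CCAAT was found in 70.5% of the mitosis promoters and in 35.7% of all. It was also frequent in promoters of the replication list (56.5%) and of the ATF4 and integrated stress response list (58.5%) described below. In homologous recombination and Fanconi anemia promoters it was found in 38.1%. The replication list differed in its CHR and E2F letters: 2 of 46 promoters held CHR (4.35%) and 21 of 46 the E2F letters (45.7%), against 3.33% of all promoters. Among genes called lower in the combination the CHR letters stood in 70 of 181 promoters (38.7%), and among genes called higher in 23 of 202 (11.4%). The genes called lower include 69 of the mitosis list, so many of the same promoters are counted again. A share without them was not computed. Short letter matches are a description of these windows, not a measurement of binding.

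At an adjusted p-value under 0.05, 3031 genes (21.8% of those tested) were higher in the combination than with VIC-1911 alone and 3121 (22.4%) were lower, 6152 (44.2%) in all. With a change of at least 2-fold as well, which is what is meant by called, 294 genes (2.11%) were higher and 234 (1.68%) lower. Genes called higher were mostly of low level, and 151 of the 294 stayed under a mean of 1 FPKM in both groups. Of the 234 genes called lower, 69 were on the list of mitosis genes and 52 were under 1 FPKM. The libraries of the 2 groups did not overlap in 284 of the genes called higher and in 229 of those called lower. Among all tested genes 25.7% lay wholly above and 25.4% wholly below. Calling genes by fold and p-value in the same libraries selects for such separation, so these counts are a description. The deposited FPKM values put combination libraries lower than scaled counts do, by 0.047 on the log2 scale, and with limma on log2(FPKM + 0.1) 2223 genes passed as higher and 3454 as lower.

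**Figure D1:**
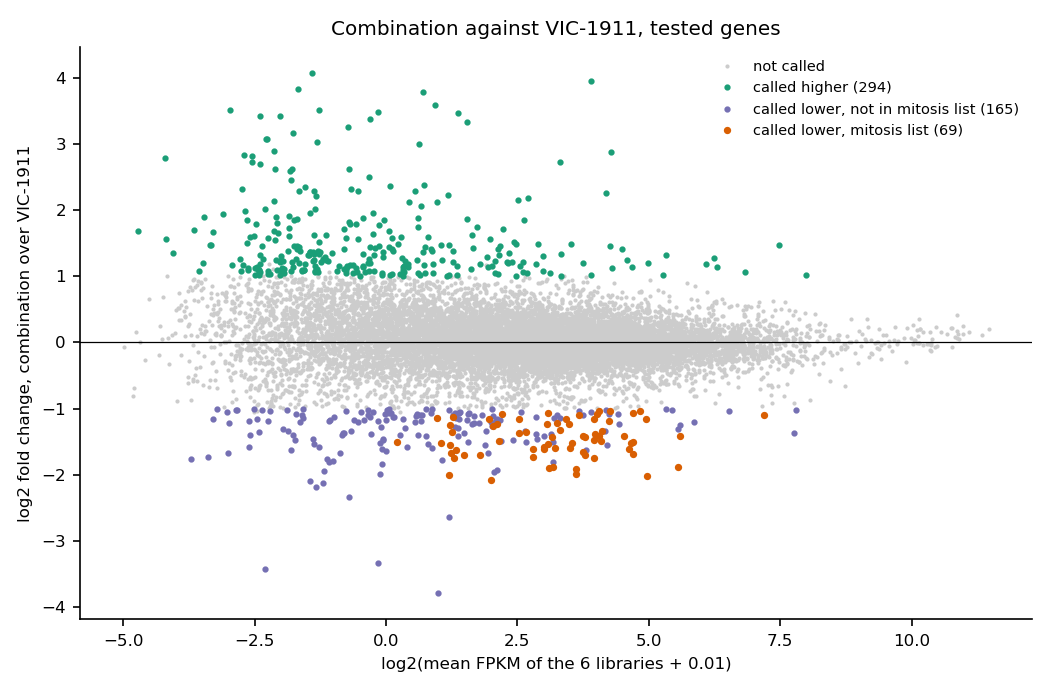
Log2 fold change of the combination over VIC-1911 alone (vertical axis) against the log2 mean FPKM of the 6 libraries plus 0.01 (horizontal axis) for the 13929 tested genes. The 69 called mitosis genes form a band below -1 at moderate levels, whereas many of the 294 genes called higher lie at low levels.

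Mitosis genes were lower in the combination than with VIC-1911 alone almost without exception. Of 91 tested genes of mitosis and G2/M, 89 fell, none rose and 69 were called lower, where 22.4% and 1.68% of all tested genes did so. In bulk RNA a smaller share of cells in G2/M and less of these transcripts per cell cannot be told apart. Over the list the median log2 fold change came to -1.32, against 0.01 over all tested genes, and members ranged from -2.08 to -0.09. The 2 genes that did not pass were CEP192 (-0.17, adjusted p = 0.0745), which recruits AURKA to centrosomes, and BUB3 (-0.09, adjusted p = 0.103), a subunit of the spindle checkpoint.

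PLK1, the kinase that AURKA activates at mitotic entry (chromosome 16, 23678889 to 23690367), measured 46.5, 51.5 and 53.7 FPKM in the VIC-1911 libraries and 11.9, 12.9 and 11.8 FPKM in the combination. PLK1 fell by 2.01 ± 0.11 (SE) on the log2 scale, which is 4.04-fold (adjusted p = 8.3e-15). It is one of the steepest falls, which were chosen among genes whose libraries did not overlap. AURKA itself (chromosome 20, 56369390 to 56392215) was 23.5, 23.0 and 25.9 FPKM with VIC-1911 and 7.33, 6.98 and 6.57 FPKM with both drugs. It fell 3.36-fold (log2 fold change -1.75 ± 0.09 SE, adjusted p = 6.6e-15). AURKB, the Aurora kinase of the chromosomal passenger complex, fell by 1.16 on the log2 scale, from 19.9 to 23.3 FPKM in the VIC-1911 libraries to between 8.20 and 10.3 FPKM. AURKC was under 1 FPKM in every one of these libraries and did not pass (adjusted p = 0.847). TACC3, the spindle protein phosphorylated by AURKA, fell by 1.07.

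Proteins of the kinetochore, spindle and cell division followed the same course. CENPE, the kinetochore motor that aligns chromosomes, was 6.24, 6.85 and 6.29 FPKM with VIC-1911 and 1.27, 1.71 and 1.52 FPKM with both drugs, the steepest fall of the list (-2.08 ± 0.09 SE, adjusted p = 9.2e-17). KIF14, a kinesin of cytokinesis, went from a mean of 3.69 FPKM down to one of 0.881 FPKM (-2.01). KIF20A, a kinesin of the central spindle, went from 19.4 to 20.3 FPKM down to 4.27 to 5.20 FPKM (-2.00). The proliferation marker MKI67 measured 15.2, 14.7 and 13.1 FPKM with VIC-1911 and 3.04, 4.42 and 3.89 FPKM with both drugs and fell 3.70-fold. ANLN, the anillin of the contractile ring, fell by 1.66 and the condensin subunit SMC4 by 1.38 on the log2 scale. PIF1, a DNA helicase outside the list, fell by 1.95. The cyclins CCNB1 and CCNB2, named after their values were seen, fell by 1.41 and 1.68, whereas their partner kinase CDK1 fell by 0.60, from a mean of 40.1 to 25.7 FPKM.

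The other 7-day groups place these levels beside those of vehicle cells. The list had a median of 1.26 for VIC-1911 over vehicle, where 90 of 91 genes rose (25.7% of all tested genes rose and 27.9% fell), and of 0.48 for olaparib over vehicle, where 76 rose (27.2% and 27.4%). The comparisons with VIC-1911 share the VIC-1911 libraries. The median for the combination over vehicle, summed from the fitted values and not tested, was 0.01, but members went both ways, from -0.78 for KIF14 to 1.21, with 78 of 91 within 0.5 of 0. It was -0.63 for MKI67 and -0.50 for CENPE, against 0.36 for TACC3. Vehicle and combination libraries belong to different runs of library numbers, so the runs and the drugs cannot be told apart here. PLK1 averaged 14.3 ± 4.42 FPKM in vehicle, 50.6 ± 3.66 with VIC-1911, 17.6 ± 2.42 with olaparib and 12.2 ± 0.62 with both (SD, n = 3). In the interaction test the effect of olaparib was lower with VIC-1911 than without it for all 91 genes (22.1% of all tested genes). The median interaction was -1.83. Without replicate 1 of olaparib it was negative for all 91 as well (-1.87). Thus olaparib went with lower mitotic transcripts in the presence of VIC-1911 and, for most of the list, with higher ones in its absence. The rise with olaparib alone did not pass for PLK1, CENPE, MKI67 and KIF14 (adjusted p = 0.0718, 0.067, 0.0687 and 0.961).

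**Figure D2:**
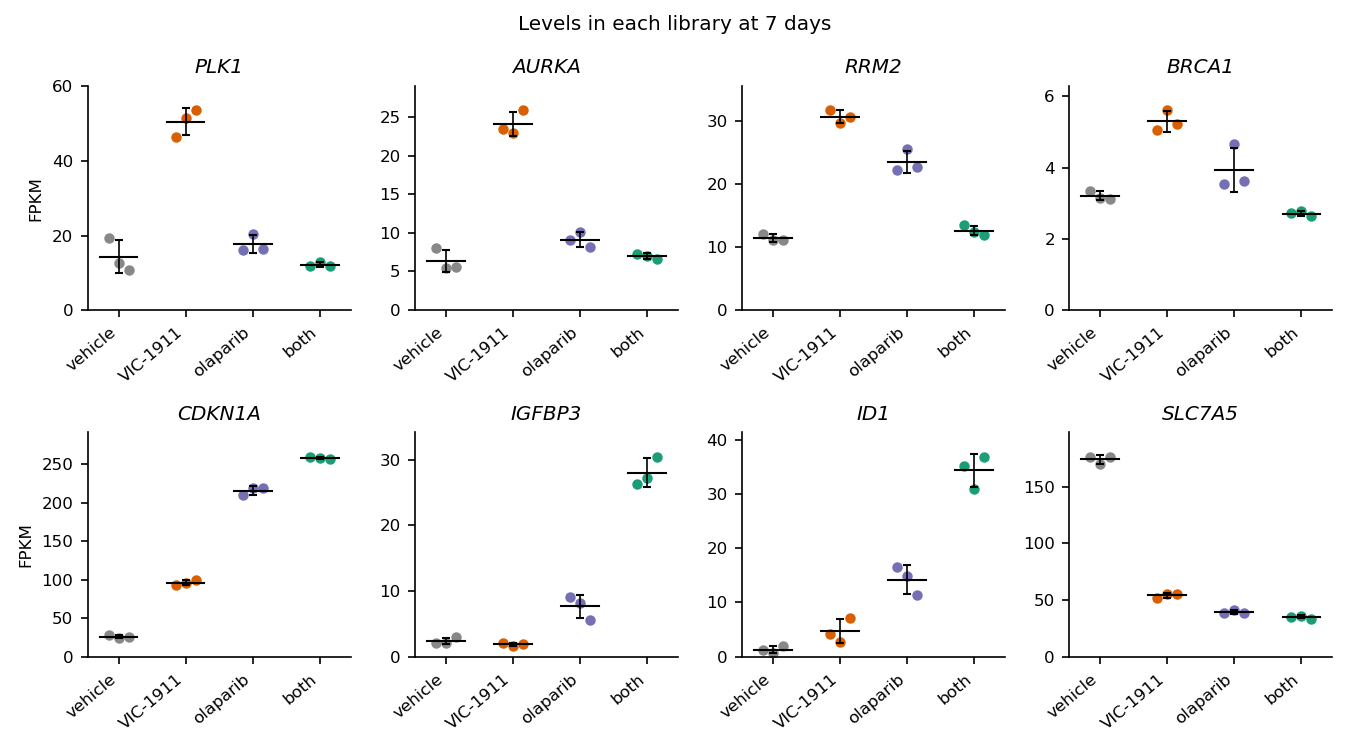
FPKM (vertical axes, each from 0) of 8 genes in the 12 libraries of 7 days, by group, where "both" is the combination. Points are libraries, horizontal lines the group means and bars the SD of 3 libraries. PLK1, AURKA, RRM2 and BRCA1 are highest with VIC-1911 alone, CDKN1A, IGFBP3 and ID1 are highest with both drugs, and SLC7A5 is low in all 3 treated groups.

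Genes of DNA replication fell as well, by less. Of 54 tested genes of licensing and the replication fork, 50 fell, 1 rose and 7 were called lower. Among all tested genes 22.4% fell, 21.8% rose and 1.68% were called lower. The log2 fold changes of these 54 genes had their median at -0.62. RRM2, the regulated subunit of ribonucleotide reductase, was 31.8, 29.7 and 30.7 FPKM with VIC-1911 and 13.5, 12.4 and 11.97 FPKM with both drugs (-1.23 ± 0.06 SE, adjusted p = 5.3e-16). Thymidine kinase TK1 fell by 1.20, from between 76.9 and 85.3 FPKM to between 30.9 and 39.6 FPKM. The chromatin ATPase ATAD2 fell by 1.02, the helicase subunit MCM4 by 0.74 and the GINS subunit GINS2 by 0.88. The other genes called lower were MCM10, CDC45, E2F2 and ORC1, which were named after their values were seen. ORC4, a subunit of the origin recognition complex, was the gene that rose (0.20, adjusted p = 0.024). In vehicle cells the list stood lower than with either drug: it was 0.84 higher with VIC-1911 and 0.56 higher with olaparib at the median. The interaction was negative for 51 of the 54 genes and positive for none, against 22.1% and 22.7% of all tested genes.

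Replication-dependent histones did not move as a group: 8 of 32 rose, 7 fell and 17 did not pass. These counts are near the 21.8% and 22.4% of all tested genes that rose and fell. HIST1H1C, a linker histone, fell by 0.96, whereas HIST2H2BE and HIST1H2BD, core histones with polyadenylated transcripts, rose by 0.63 and 0.71. Histone genes are near copies of each other and a poly(A) library holds few of their usual transcripts, so these values are uncertain. Among tubulins 4 of 16 rose, which is near the share of all tested genes, and 6 fell. TUBA1B fell from between 290.6 and 311.4 FPKM to between 139.1 and 148.8 FPKM (-1.02), whereas TUBB3, the tubulin of neurons, rose by 1.13, and reads of these genes may be shared with close copies.

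**Figure D3:**
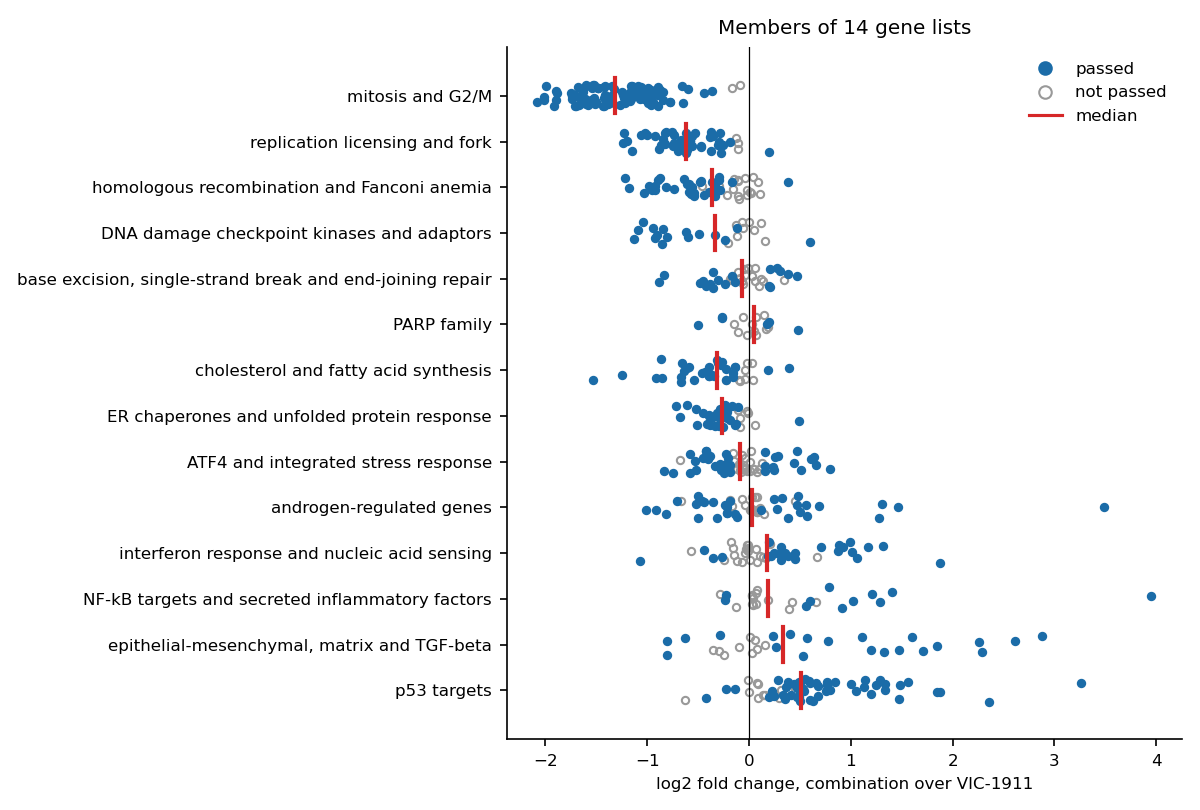
Log2 fold change of the combination over VIC-1911 alone (horizontal axis) for the tested members of 14 gene lists (rows). Filled points passed at an adjusted p-value under 0.05, open points did not, and red bars are the list medians, which run from -1.32 for mitosis genes to 0.51 for p53 targets.

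Genes of homologous recombination and the Fanconi anemia pathway, on which cells with trapped PARP rely, were lower in the combination. Of 49 tested, 31 fell (22.4% of all tested genes did), 1 rose (21.8%) and 17 did not pass. The median log2 fold change was -0.37. BRCA1 was 5.05, 5.61 and 5.23 FPKM with VIC-1911 and 2.72, 2.77 and 2.64 FPKM with both drugs, a fall of 1.90-fold (-0.92 ± 0.08 SE, adjusted p = 1.8e-10). BRCA2, another core gene of this pathway, fell by 0.81. The groups did not overlap for either gene. The nuclease EXO1 fell by 1.18, FANCI by 0.98, the ubiquitin-conjugating enzyme UBE2T by 0.89 and FANCA by 0.61. EXO1 and 2 genes named after their values were seen, MND1 (-1.22) and BLM (-1.03), were the ones called lower, and RAD52 was the gene that rose (0.38, adjusted p = 0.00497).

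The list stood above vehicle with each drug alone (medians 0.55 with VIC-1911 and 0.38 with olaparib). BRCA1 averaged 3.21 FPKM in vehicle, 5.30 with VIC-1911, 3.94 with olaparib and 2.71 with both. With both drugs the named genes stood on either side of vehicle, which was not tested. BRCA2 (1.28 FPKM in vehicle, 1.64 with both), FANCA (2.08 and 2.34) and UBE2T (17.4 and 21.1) were above it. EXO1 (1.98 and 1.74) and FANCI (8.52 and 7.80) were below it, as BRCA1 was. The interaction was negative for 34 and positive for 2 of the 49 genes, against 22.1% and 22.7% of all tested genes. It was -1.20 for BRCA1 and -1.72 for BRCA2.

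Among checkpoint kinases and adaptors 15 of 25 genes fell and 1 rose, where 22.4% and 21.8% of all tested genes did so. H2AFX, the histone variant phosphorylated at double-strand breaks, was 121.3, 123.7 and 130.2 FPKM with VIC-1911 and 63.6, 55.8 and 56.6 FPKM with both drugs (-1.04, adjusted p = 1.8e-13). MDC1, which binds phosphorylated H2AX, fell by 1.09, the fork protection factor TIMELESS by 0.84, the phosphatase CDC25B by 0.94 and CHEK2 by 0.62. CDC25C, named after its value was seen, was called lower too (-1.13). The apical kinases ATM and ATR did not pass, at 0.12 (adjusted p = 0.208) and -0.07 (adjusted p = 0.371). The gene that rose was PPM1D, a p53-induced phosphatase of the damage response (0.60, adjusted p = 8e-07).

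The targets of olaparib changed little at the RNA level. PARP1 was 84.4, 84.7 and 90.1 FPKM with VIC-1911 and 70.1, 70.8 and 68.2 FPKM with both drugs (-0.27 ± 0.04 SE, adjusted p = 7.5e-06). PARP2 fell by 0.50, from between 12.9 and 13.2 FPKM to between 8.33 and 9.72 FPKM, and the tankyrase TNKS2 fell by 0.26. PARP10 rose by 0.48, the largest rise among the 17 tested PARP family genes, of which 3 rose, 3 fell and 11 did not pass. The shares of all tested genes that rose and fell were 21.8% and 22.4%. In base excision, single-strand break and end-joining repair 7 of 36 genes rose and 12 fell, and without replicate 2 of VIC-1911 4 rose. The 4 named by the rule were the flap endonuclease FEN1 (-0.84), the uracil glycosylase UNG (-0.48), TDP1 (-0.45) and PRKDC, the kinase of end joining (-0.38).

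Targets of p53 were higher in the combination. Of 65 tested, 50 rose, 3 fell and 12 did not pass, and 16 were called higher, where 21.8% and 2.11% of all tested genes did so. The median log2 fold change was 0.51. CDKN1A, the gene of p21 (chromosome 6, 36676463 to 36687332), was 93.0, 95.5 and 99.8 FPKM with VIC-1911 and 260.1, 258.0 and 256.8 FPKM with both drugs, a rise of 2.78-fold (1.47 ± 0.05 SE, adjusted p = 1.5e-19). BTG2, an antiproliferative factor, measured 17.9, 20.2 and 20.6 FPKM against 42.7, 44.4 and 44.1 FPKM and rose by 1.20. ZMAT3, an RNA-binding p53 target, rose by 1.48, from between 5.71 and 6.96 FPKM to between 15.8 and 17.2 FPKM. MDM2, the ubiquitin ligase that limits p53, rose by 0.77 from between 21.5 and 22.2 FPKM to between 35.1 and 37.4 FPKM. The groups did not overlap for any of these genes.

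With olaparib alone the list also rose, by a median of 0.73 over vehicle, and with VIC-1911 alone by 0.35. CDKN1A averaged 25.9 ± 2.23 FPKM in vehicle, 96.1 ± 3.46 with VIC-1911, 215.9 ± 5.36 with olaparib and 258.3 ± 1.68 with both (SD, n = 3). Its rise with olaparib was therefore smaller in the presence of VIC-1911 (1.47) than in its absence (3.02), and the interaction was -1.55. It was -1.05 for BTG2, -0.56 for MDM2 and -0.49 for ZMAT3. Over the list the interaction was negative for 31 genes and positive for 12, against 22.1% and 22.7% of all tested genes.

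Genes of the BCL2 family and the apoptosis effectors moved in both directions, with 13 of 36 higher (36.1%, against 21.8% of all tested genes) and 6 lower (16.7%, against 22.4%). BBC3, which encodes the p53-induced killer protein PUMA, was 5.66, 5.94 and 5.86 FPKM with VIC-1911 and 14.4, 14.4 and 13.9 FPKM with both drugs (1.33 ± 0.08 SE, adjusted p = 5.7e-14). The pore-forming BAX rose by 0.63 and the BH3-only gene BIK by 0.52, and the protective BCL2L1 rose by 0.40. BBC3 was the gene of the list called higher. BCL2, named after its value was seen, was called lower at means of 0.16 and 0.07 FPKM. Without replicate 2 of VIC-1911, 3 rather than 6 genes of the list fell.

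All of the 10 genes with the steepest rises but ID1 averaged under 2 FPKM with VIC-1911 alone. IGFBP3, which binds insulin-like growth factors outside the cell (chromosome 7, 45912245 to 45921272), was 2.07, 1.59 and 1.96 FPKM with VIC-1911 and 26.3, 27.2 and 30.5 FPKM with both drugs. It rose 15.5-fold (3.95 ± 0.13 SE, adjusted p = 2.4e-19). SULF2, an extracellular sulfatase that edits heparan sulfate, went from between 0.225 and 0.406 FPKM to between 3.12 and 3.91 FPKM (3.60). FAXDC2, a gene of the fatty acid hydroxylase family, went from between 0.478 and 0.607 FPKM to between 4.19 and 6.29 FPKM (3.33). The steepest rises were chosen among genes whose libraries did not overlap, so the separation of the groups follows from that choice.

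UGT2B11 and UGT2B28, glucuronosyltransferases of the family that conjugates androgens, rose by 3.47 and 3.49. They are close copies of other UGT2B genes, and reads may be shared among them. UGT2B11 was 0.509, 0.437 and 0.381 FPKM with VIC-1911 and 4.85, 5.34 and 3.91 FPKM with both drugs. UGT2B28 was at most 0.204 FPKM with VIC-1911 and 1.40 to 2.13 FPKM with both. APOBEC3C, a cytidine deaminase of the antiviral family and a gene on the p53 list, had 0, 4 and 2 counts with VIC-1911 and 28, 18 and 24 with both (3.26). PRAMEF12 rose by 3.38 and the uncharacterised transcripts LOC101927501 and LOC283352 by 3.79 and 2.996, each from at most 10 counts per VIC-1911 library. UGT2B28, APOBEC3C, PRAMEF12 and LOC283352 had at most 6 counts in any VIC-1911 library. They met the count filter through the combination libraries alone.

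With olaparib alone, 9 of these 10 genes, including ID1 described below, rose by more than 2 on the log2 scale over vehicle, and for these the interaction did not pass. It was imprecise for genes with few counts, at -2.20 ± 1.21 (SE) for APOBEC3C and 0.88 ± 0.84 for LOC283352. Not passing therefore does not show equal effects. Among the 10, IGFBP3 was the exception. Its rise was 1.65 without VIC-1911 and 3.95 with it, an interaction of 2.31 (adjusted p = 7.1e-10), and its mean was 2.38 FPKM in vehicle and 7.64 FPKM with olaparib. Of the 294 genes called higher, 185 also passed as higher with olaparib alone, 12 passed as lower and 97 did not pass. Among all tested genes 27.2% passed as higher with olaparib alone and 27.4% as lower. These comparisons share no library, but each sets the same run of library numbers against the other. A difference between the runs would enter both.

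The ID genes, inhibitors of helix-loop-helix factors that BMP and TGF-beta signals regulate, stood out among the genes of epithelial-mesenchymal change, matrix and TGF-beta. Of 30 tested genes of that list, 17 rose, 4 fell and 11 were called higher (21.8%, 22.4% and 2.11% of all tested genes). ID1 (chromosome 20, 31605289 to 31606510) was 4.23, 2.73 and 7.07 FPKM with VIC-1911 and 35.2, 31.0 and 36.9 FPKM with both drugs, a rise of 7.34-fold (2.87 ± 0.16 SE, adjusted p = 2.8e-14). ID3 rose by 2.26, from between 4.92 and 8.09 FPKM to between 28.3 and 31.1 FPKM. The VIC-1911 libraries spread more for these genes than for the mitosis genes, but none reached the combination. ID1, one of the steepest rises, was chosen among genes without overlap. THBS1, the matrix protein thrombospondin, rose by 1.33 from between 21.6 and 24.9 FPKM to between 52.1 and 60.6 FPKM. The intermediate filament VIM rose by 1.20. ID2, SMAD7, SNAI2, TGFB2 and MYL9 were among the others called higher and were named after their values were seen, at 1.85, 1.11, 1.60, 2.29 and 1.71. The integrins ITGA2, ITGA5 and ITGAV and the crosslinking enzyme LOX fell.

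With olaparib alone ID1 rose by 3.55 and ID3 by 3.08 over vehicle. ID1 averaged 1.29 FPKM in vehicle, 4.68 with VIC-1911, 14.2 with olaparib and 34.4 with both, the highest of the 4 groups. The smooth muscle actin ACTA2 rose by 2.30 to a mean of 2.39 FPKM, but the gene overlaps FAS, a p53 target that rose by 1.05, and their reads cannot be told apart without strand. The summed stromal and endothelial markers, ACTA2 among them, were 6.49 to 8.10 FPKM with VIC-1911 and 8.74 to 8.98 FPKM with both drugs, and 4 or 5 of the 14 had no counts.

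At the other end, the genes that fell furthest outside the mitosis list included some with few counts. PHGR1, a gene of gut epithelium, had 23, 29 and 24 counts with VIC-1911 and 1, 2 and 3 counts with both drugs (-3.79 ± 0.47 SE, adjusted p = 1.3e-07). ZP1, which encodes an egg coat protein, had 41, 67 and 43 counts against 8, 5 and 4 (-3.34). Both genes met the count filter through the VIC-1911 libraries alone. SLC22A3, an organic cation transporter, went from between 3.495 and 4.28 FPKM to between 0.402 and 1.06 FPKM (-2.63). The transglutaminase TGM3 (-2.34) and TTC29 (-1.99) fell as well. With olaparib alone TGM3 (-3.15), TTC29 (-2.72), PHGR1 (-1.81) and ZP1 (-1.51) were also lower than in vehicle, and SLC22A3 did not pass (0.05, adjusted p = 0.855). Of the 234 genes called lower, 55 (23.5%) passed as lower with olaparib alone, where 27.4% of all tested genes did, 99 (42.3%) passed as higher, where 27.2% did, and 80 did not pass.

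Genes of the integrated stress response, which ATF4 controls and which supply amino acids and their transporters, were already low with VIC-1911 and changed little when olaparib was added. Of 55 tested, 14 rose and 22 fell (21.8% and 22.4% of all tested genes), none by 2-fold, with a median of -0.09. The amino acid transporter SLC7A5 was 51.5, 55.1 and 55.5 FPKM with VIC-1911 and 35.3, 36.2 and 33.7 FPKM with both drugs (-0.58 ± 0.04 SE, adjusted p = 1.3e-11). The glutamine transporter SLC1A5 fell by 0.83 and the methionyl-tRNA synthetase MARS by 0.41, while SESN2, which p53 induces as well, rose by 0.79. The combination libraries did not overlap the VIC-1911 libraries for any of these 4 genes. SLC7A5 averaged 174.5 FPKM in vehicle and 39.2 with olaparib alone. The median of the list was -1.56 for VIC-1911 over vehicle and -1.55 for olaparib over vehicle, and the interaction was positive for 51 of 55 genes and negative for none, where 22.7% of all tested genes were positive. The cystine transporter SLC7A11, listed with glutathione genes, was at -0.58 in the combination against VIC-1911 and at -4.07 with olaparib alone, and its interaction was 3.49.

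ER chaperones and genes of the unfolded protein response were lower in the combination, with 29 of 36 lower, 1 higher and a median of -0.26. Over all tested genes 22.4% were lower and 21.8% higher. The list was also below vehicle with each drug alone, at medians of -0.44 with VIC-1911 and -0.65 with olaparib. The interaction was positive for 31 of the 36 genes and negative for 1, against 22.7% and 22.1% of all tested genes. With olaparib alone XBP1 fell by 2.01. XBP1, a transcription factor of this response, was 127.0, 142.9 and 119.5 FPKM with VIC-1911 and 79.2, 78.8 and 77.1 FPKM with both (-0.68), FKBP11 fell by 0.72, CRELD2 by 0.46 and SSR1 by 0.40. None was called, and the gene that rose was SEC11C, a signal peptidase subunit (0.49). Among heat shock proteins 7 of 25 rose and 9 fell. HSP90AA1 rose by 0.19, the chaperonins HSPD1 and TCP1 fell by 0.26 and 0.27, and the small heat shock protein HSPB8 rose by 1.15 at 1.36 to 2.08 FPKM.

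Lipid synthesis genes were lower. Of 39 genes of cholesterol and fatty acid synthesis, 29 fell and 2 rose, with a median of -0.32. The shares over all tested genes were 22.4% and 21.8%. INSIG1, which holds SREBP in the ER and is itself induced by SREBP, was 69.2, 66.6 and 70.2 FPKM with VIC-1911 and 30.7, 26.5 and 26.8 FPKM with both drugs (-1.25 ± 0.07 SE, adjusted p = 5.7e-14). The desaturase SCD fell by 0.92, from between 208.0 and 226.5 FPKM to between 109.5 and 112.9 FPKM. The fatty acid desaturases FADS1 and FADS2, which overlap in the genome, fell by 0.86 each. ELOVL6, an elongase named after its value was seen, fell by 1.53. With olaparib alone SCD fell by 1.08 and INSIG1 by 0.62. The interaction did not pass for SCD (adjusted p = 0.129) and was -0.63 for INSIG1.

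Other metabolic lists moved less. Their counts stand beside 21.8% of all tested genes that rose and 22.4% that fell. Nuclear genes of the respiratory chain fell in 26 of 60 and rose in 4, led by SDHB (-0.46), NDUFC1 (-0.44), COX7B (-0.40) and UQCRFS1 (-0.39). Glycolysis and hypoxia genes split into 12 higher and 12 lower of 37, with NDRG1 up by 1.28 and BNIP3L by 0.43, and PFKP and LDHA lower by 0.60 and 0.41. NRF2, glutathione and iron genes split into 8 and 10 of 32: GPX1 rose by 0.49 and GPX4 by 0.48, and the transferrin receptor TFRC fell by 0.54. Of autophagy and lysosome genes 14 of 46 rose and 7 fell, with rises of NPC1 (0.60), GABARAPL1 (0.58), GABARAP (0.47) and PSAP (0.36). Proteasome subunits fell in 11 of 32 and rose in 1, PSMA6 (0.26), with PSMC3 lower by 0.49, PSMD2 by 0.29 and PSMD3 by 0.26. In the MYC network and ribosome biogenesis 18 of 41 fell and 7 rose. Ornithine decarboxylase ODC1 fell by 0.91 and UTP20 by 0.58, and the MYC antagonists MNT and MXD4 rose by 0.56 and 0.34. Without replicate 3 of VIC-1911, 11 of these genes fell. Cytosolic ribosomal protein genes rose in 25 of 78 and fell in 4, by at most 0.42 for RPL3, with RPL12 at 0.36, RPL10A at 0.26 and RPL10 at -0.33.

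Interferon genes moved in both directions. Of 46 genes of the interferon response and nucleic acid sensing, 21 rose, 4 fell, 5 were called higher and 1 lower. The shares over all tested genes were 21.8%, 22.4%, 2.11% and 1.68%. IRF1, an interferon-induced transcription factor, was 0.289, 0.245 and 0.395 FPKM with VIC-1911 and 0.989, 1.15 and 1.27 FPKM with both drugs (1.88). LGALS3BP rose by 1.06, from between 4.09 and 4.35 FPKM to between 8.14 and 9.06 FPKM. OAS3, a sensor of double-stranded RNA, went the other way (-1.07, from between 3.43 and 3.64 FPKM to between 1.54 and 1.76 FPKM), whereas OAS1, named after its value was seen, rose by 1.02. TRIM14 fell by 0.44. Antigen presentation genes of MHC class I split into 7 higher and 5 lower of 20, with TAP1 at 0.44 and TAP2 at -0.52, and the ER chaperones CANX and PDIA3, counted on that list, fell by 0.22 and 0.29.

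Among NF-kB targets and secreted inflammatory factors 9 of 25 rose and 2 fell, where 21.8% and 22.4% of all tested genes did so. IGFBP3, given above, is on this list, as is the cytokine LIF, which p53 also induces and which rose by 1.29 from between 2.11 and 2.43 FPKM to between 5.18 and 5.38 FPKM. The inhibitor NFKBIA rose by 0.79, from between 23.4 and 30.7 FPKM to between 42.8 and 48.8 FPKM, and NFKB2 rose by 0.56. Of the immediate early genes 11 of 20 rose and 2 fell, with JUNB at 0.61, FOSL2 at 0.50 and JUN at 0.47.

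Androgen-regulated genes moved in both directions, with 15 of 51 higher and 18 lower, where 21.8% and 22.4% of all tested genes were. The kinase CAMKK2 was 55.0, 56.9 and 49.8 FPKM with VIC-1911 and 26.3, 27.6 and 24.0 FPKM with both drugs (-1.01) and PPAP2A, a lipid phosphatase, fell by 0.82. NDRG1 rose from between 44.8 and 45.9 FPKM to between 101.9 and 115.7 FPKM (1.28), and the transcription factor MAF by 1.30. EAF2, named after its value was seen, rose by 1.47. Luminal markers changed by less than 2-fold: HOXB13 fell by 0.50, FOLH1, the gene of PSMA, by 0.44 and EPCAM by 0.37, and KRT8, which overlaps KRT18, rose by 0.34.

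Markers of other lineages were low. Basal KRT14 rose by 1.39 to between 2.43 and 2.89 FPKM, LAMB3 rose by 2.62 to at most 0.414 FPKM, COL17A1 had 0, 2 and 3 counts with VIC-1911 and 24, 22 and 24 with both, and DST fell by 0.61. COL17A1 met the count filter through the combination libraries alone. The summed basal markers were 8.02 to 8.51 FPKM with VIC-1911 and 8.63 to 9.50 FPKM with both drugs. Neuroendocrine markers summed to 24.4 to 25.3 FPKM with VIC-1911 and 19.5 to 20.3 FPKM with both drugs. Most of that fall was the methyltransferase EZH2, which went from a mean of 12.6 to 6.93 FPKM (-0.81). The median log2 fold change of the 7 tested members was 0.13. The synaptic protein SYP was lower by 0.63 at under 1 FPKM, and ENO2 was higher by 0.56. SYP did not pass without any one of the VIC-1911 libraries or without replicate 1 or 2 of the combination (adjusted p = 0.0543 to 0.162). The leukocyte marker CD68, a lysosomal protein, rose by 0.40. Stromal COL1A1 rose by 0.63 and endothelial VWF fell by 0.92 at under 1 FPKM. RNAs without poly(A) tails moved both ways: SNORD3A rose by 2.16 and RN7SK by 0.90, and RN7SL1 and RN7SL2 fell by 0.46 and 0.58. None of these 4 passed with DESeq2 (adjusted p = 0.0759, 0.132, 0.145 and 0.0548), RN7SK did not pass without replicate 3 of VIC-1911 (0.0844) or replicate 1 of the combination (0.0608), and RN7SL1 did not without replicate 1 of VIC-1911 (0.145). TRIM28, a chromatin corepressor, passed narrowly as lower (-0.11, adjusted p = 0.0441), and with no scaling beyond library size its adjusted p was 0.0967. It also missed without replicate 3 of vehicle, 2 or 3 of VIC-1911, or 2 or 3 of the combination (adjusted p = 0.0505 to 0.188).

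The interaction was positive for 3157 genes (22.7%) and negative for 3080 (22.1%). Of the 234 genes called lower in the combination, 174 had an interaction in the same direction, 9 in the other, and 51 did not pass. Of the 294 genes called higher, 79 and 36 did so, and 179 did not pass. The interaction contains the difference by which these genes were called, so genes called lower lean to a negative interaction and genes called higher to a positive one by their selection, and the counts are a description. Across the 13929 genes the olaparib effects with and without VIC-1911 had a Pearson r of 0.314 and a Spearman rho of 0.18. This is a correlation across genes, which are not independent replicates, and each axis compares libraries of the same 2 number runs.

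**Figure D4:**
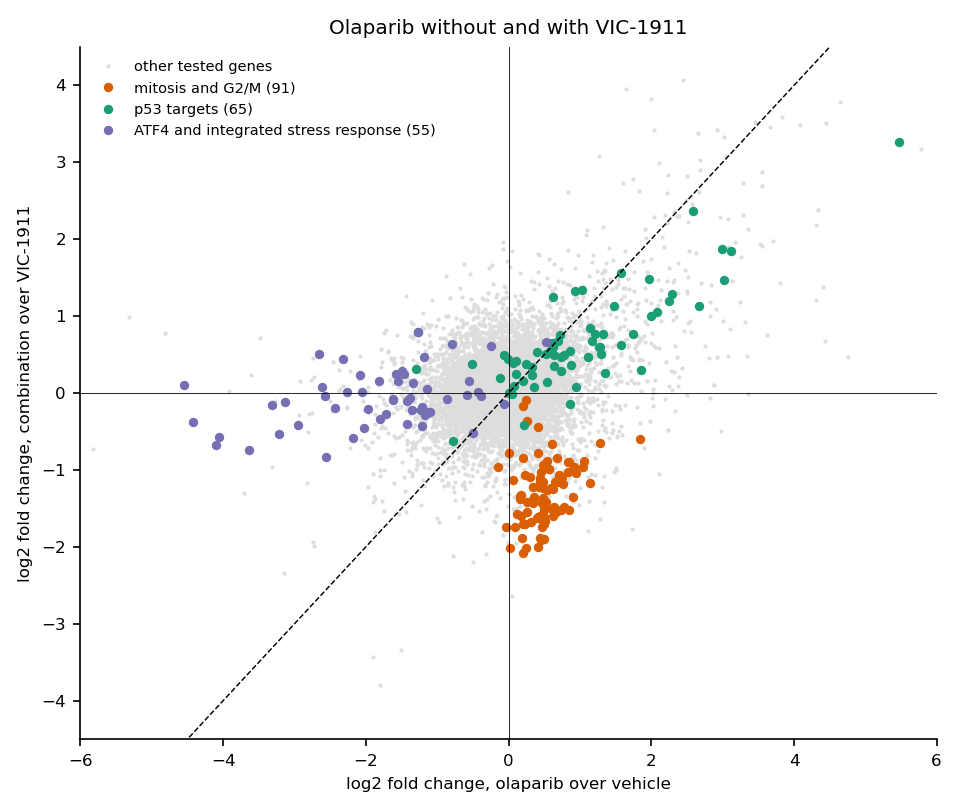
Log2 fold change of the combination over VIC-1911 alone (vertical axis) against that of olaparib over vehicle (horizontal axis), with the line of equal effects dashed; 1 gene lies outside the horizontal range. The 91 mitosis genes lie below 0 on the vertical axis and mostly right of 0, the 65 p53 targets mostly between the dashed line and the horizontal axis, and the 55 integrated stress response genes spread to the left near 0 on the vertical axis.

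Called genes with the most extreme interaction were mostly of low level. The positive end held DNAAF1 (2.71), FAM129A (2.41), BCL11B (2.41), OSCAR (2.31) and IGFBP3 (2.31), and the negative end DNAH3 (-3.50), BRDT (-3.10), FAM107A (-3.02), LOC101929705 (-2.92) and LYPD8 (-2.92). FAM129A, an ATF4-responsive gene also called NIBAN1, was at 27.7 FPKM in vehicle, 2.13 with olaparib, between 2.88 and 4.24 with VIC-1911 and between 1.25 and 1.78 with both drugs. It was thus called lower in the combination (-1.30) with a positive interaction. The others, IGFBP3 apart, averaged under 2 FPKM in every group. DNAAF1 and OSCAR met the count filter through the combination libraries alone, and DNAH3 and LYPD8 through the VIC-1911 libraries alone.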

How the data were processed

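RNA of C4-2B cells from 12 libraries of 7 days (3 each of vehicle, VIC-1911, olaparib and both drugs) was used. Groups were taken from the sample records. The authors trimmed reads with Trimmomatic, aligned them to hg38 with STAR (2.6.0 in the submitters' processing notes) and deposited whole-number counts of reads per gene, without normalization. The strand setting and the treatment of reads with several matches are not given in the sources used here. The deposited FPKM values came from an in-house script of the authors. Within a library they equal counts divided by gene length and a constant, to within 7.7e-08 over 7944 genes, and they are printed here as levels only.

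The 12 libraries entered a quasi-likelihood fit of the counts in edgeR 4.0.16 (R 4.3.3) with TMM factors. A gene was kept when 3 or more of the 6 compared libraries had 10 or more counts. Contrasts were the combination minus VIC-1911 and the interaction, that is, this difference minus olaparib minus vehicle, without a fold limit. P-values were adjusted by Benjamini-Hochberg over the 13929 genes. Genes passed at an adjusted p-value under 0.05 and were called with a fold of at least 2 as well. Fold changes are log2 values from this fit. The samples, tests, lists and genes were chosen with earlier results of these data known. The 34 lists were written from general knowledge. Named genes are the 10 steepest rises and the 10 steepest falls among called genes (at least 1 FPKM in a group, no overlap of libraries), the 5 highest and 5 lowest interactions among called genes, up to 4 genes of each list by adjusted p-value, and drug targets and repair genes that the study discusses. Of these, 82 overlap another gene in RefSeq, and their counts are uncertain. List symbols were matched through older names. The 28 gene names turned into dates (0.185 to 0.2% of counts) stayed in the fit and are not named. A few genes are not reported here. The mitochondrially encoded list had no gene in the table. Alternatives were other scalings and filters, a fit of the 6 libraries, DESeq2 1.42.0, a block for the replicate number, glmTreat, a fold of 1.5, limma 3.58.1 on log2(FPKM + 0.1) or log2(FPKM + 1), and each library left out. The code was tested on simulated data. Total counts per library, 4967931 to 19684208, set the precision. RefSeq (GRCh38.p14) gave coordinates and promoters.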

Additional observations from a re-analysis of the deposited data

Results flagged for a closer look

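The effect of olaparib differed between cells with and without VIC-1911 for 3157 genes with a positive interaction and 3080 with a negative one, by edgeR's quasi-likelihood test over 12 libraries. No explanation was tested. Values are log2 differences, and each is given because the test of the difference between the 2 olaparib effects passed. Replicate 1 of olaparib stood apart from the other olaparib libraries on the third principal component, and without it all 34 genes given here passed in the same direction.

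Among drug targets and mitotic kinases the interaction was -2.21 for AURKA, -1.64 for AURKB, -1.77 for TACC3, -2.26 for PLK1, -0.72 for PARP1 and -0.53 for PARP2. It was -2.28 for CENPE, -2.03 for KIF14, -2.41 for KIF20A, -2.08 for MKI67 and -2.06 for PIF1. All of these genes but PARP1 and PARP2 were called lower in the combination. Repair and checkpoint genes gave -1.20 for BRCA1, -1.72 for BRCA2, -1.21 for FANCA, -1.75 for H2AFX, -1.09 for CHEK2, -0.30 for ATR and 0.32 for ATM. The value of ATM lost its call without replicate 2 of vehicle (adjusted p = 0.0793) and without replicate 3 of VIC-1911 (adjusted p = 0.0949). The p53 targets CDKN1A and MDM2 gave -1.55 and -0.56, and TRIM28 gave -0.29.

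Among the genes with the steepest changes, IGFBP3 gave 2.31, SLC22A3 -2.68, ZP1 -1.83 and PHGR1 -1.99. The value of PHGR1 lost its call without replicate 3 of olaparib (adjusted p = 0.0743) and without replicate 1 of the combination (adjusted p = 0.0676). The genes named for their interaction were DNAAF1 (2.71), FAM129A (2.41), BCL11B (2.41) and OSCAR (2.31) at the positive end and DNAH3 (-3.50), BRDT (-3.10), FAM107A (-3.02), LOC101929705 (-2.92) and LYPD8 (-2.92) at the negative end. With limma on log2(FPKM + 1), ATM, PHGR1, OSCAR, BRDT, DNAH3 and FAM107A lost their calls (adjusted p = 0.169, 0.0613, 0.429, 0.0803, 0.0829 and 0.072). ATM (0.175) and OSCAR (0.184) also did so on log2(FPKM + 0.1). DNAH3, BRDT and FAM107A averaged only 0.012 to 0.029 FPKM in vehicle.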

How the results depend on the processing

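No gene called higher or lower changed sign when any of the 6 compared libraries was left out. Of the 294 genes called higher, 197 were called in all 6 of these fits and 243 passed in all, and of the 234 called lower 177 and 215. Over all 12 fits without one library, genes called higher numbered 272 to 325 and lower 233 to 260, and interactions 2701 to 3126 higher and 2791 to 3232 lower. The counts moved by over 1.5 times with glmTreat, which tests against the 2-fold limit (76 called higher and 78 lower), with a fold limit of 1.5 (812 and 648), with limma on log2(FPKM + 0.1) (177 called higher), with limma on log2(FPKM + 1) (53 and 107) and with a mean of at least 1 FPKM (150 called higher). A pseudocount understates the change of scarce genes. Higher genes made up 49.3% of those that passed, 39.2% and 39.3% in the limma fits, 56% with upper-quartile factors and 54.7% without scaling beyond library size. DESeq2 called 256 of the 294 and 226 of the 234.

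Libraries with the same replicate number did not deviate together: the correlation between VIC-1911 and combination libraries was -0.0408 to 0.0509 for equal numbers and -0.0849 to 0.112 for others. With the replicate block, 303 genes were called higher and 236 lower. Of the 158 named genes reported here that passed, none reversed and 149 kept their side of the threshold in every alternative other than glmTreat, which was not run for them. Genes that did not pass changed sign: over the fits without one library ATR ranged from -0.138 to 0.006 and AURKC from -0.205 to 0.350. Of 1088 list counts recomputed, 1036 stayed within 1.5 times. Depth limits genes with few counts, such as PHGR1 with 1 to 3 counts per combination library.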

Other observations

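Outside all lists, 15 called genes had a mean of at least 20 FPKM with VIC-1911 or with both drugs, 6 of them higher and 9 lower in the combination. They were chosen after their values were seen. SAT1, which acetylates polyamines, went from a mean of 42.4 to 93.2 FPKM (1.18 on the log2 scale), while ODC1, which makes putrescine, fell by 0.91. With olaparib alone SAT1 changed by 0.28 and ODC1 by -0.17, and their interactions were 0.90 and -0.74. The nuclear RNA MALAT1 rose from 172.5 to 339.9 FPKM (1.03), with an interaction of 0.88. MICAL1, an actin-oxidising enzyme, rose from 75.3 to 153.0 FPKM, the vesicle protein SYT4 from 50.4 to 106.9 FPKM and the phosphatase DUSP2 from 12.6 to 32.2 FPKM. These 3 also rose with olaparib alone, by 1.61, 1.36 and 1.53.

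On the lower side, FAM64A, CDKN3, SPAG5 and HMGB2, genes of the cell cycle and chromatin, fell by 1.62, 1.55, 1.34 and 1.31, with interactions of -2.16, -1.73, -1.90 and -1.31. BCYRN1, a small RNA derived from an Alu element whose reads may be shared with Alu copies, went from 317.6 to 119.0 FPKM. DDC and LRIG1 fell by 1.09 and 1.08, and with olaparib alone by 1.47 and 1.36. The metallothionein MT2A fell by 1.02 and LBR, a receptor of the nuclear lamina, by 1.05.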
